A study of Mus musculus with 2 samples.

Results

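The cells described here were the pancreatic beta cells with the most inducible heat shock RNA in a single-cell library of islets from wild type mice. Beta barcodes were taken as barcodes with at least 5610 UMIs (unique molecular identifiers, each tagging 1 captured RNA molecule), at least 500 genes and at most 15% of UMIs from mitochondrial genes. Their insulin genes Ins1 and Ins2 together held from 35% to under 60% of UMIs, with Gcg and Ppy each under 1.5% and Sst under 0.3%. Of 737280 barcodes in the matrix, 4541 passed the depth, gene and mitochondrial limits and 2629 met the whole rule. These were ranked by the summed share of their non-insulin UMIs in Hspa1a and Hspa1b, and the 263 cells of highest share (10%) are called the heat shock cells. The 1314 cells of lowest share served as the reference and are called the low-share cells. The values of Hspa1a and Hspa1b chose both sets, so their difference is a description and supports nothing.

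The series holds islets of wild type mice and of mice with a beta cell specific miR-203 transgene. The wild type library came from male mice 8 weeks old that had been fasted for 12 hours, and it was the only library used here; every cell, reference cells included, shares that genotype, age, sex and fast. The number of mice behind the library was not given in the labels, which also describe islets frozen in liquid nitrogen and, in the same text, a sort of goblet cells that does not match an islet sample. The library was made with the 10x Genomics 3′ kit, version 2. With 1 library there is no replicate check, so no test was possible across animals, and the intervals below are 95% exact intervals that cover counting error only.

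Hspa1a and Hspa1b encode the stress-inducible cytosolic Hsp70 proteins, chaperones that bind unfolded segments of other proteins and pass through cycles of ATP hydrolysis driven by J-domain partners (the Dnaja and Dnajb families) and nucleotide exchange factors (Hsph1, Bag3). Their transcription is driven by heat shock factor 1, which binds inverted repeats of the motif nGAAn when misfolded protein draws chaperones away from it. Fos, Jun and Egr1 belong to a different class, the immediate early genes, which beta cells transcribe within minutes of depolarisation, calcium entry or cAMP signalling. Tissue dissociation is also known to induce them, and its part in the RNAs of either class was not tested here.

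Both Hsp70 genes lie side by side on the minus strand of mouse chromosome 17, Hspa1a at chr17:34969359-34972156 and Hspa1b at chr17:34956429-34959238 (RefSeq, GRCm38.p6). Their upstream sequences are shown because the 2 RNAs that define the cells are so alike. In RefSeq (GRCm38.p6, minus strand) the 250 bases before the annotated start are at chr17:34972157-34972406 for Hspa1a and chr17:34959239-34959488 for Hspa1b. Capitals mark the 1 match of each to the heat shock element pair, spelled GAANNTTC or TTCNNGAA and searched on both strands, which begins 104 bases before the start in Hspa1a.
Hspa1a: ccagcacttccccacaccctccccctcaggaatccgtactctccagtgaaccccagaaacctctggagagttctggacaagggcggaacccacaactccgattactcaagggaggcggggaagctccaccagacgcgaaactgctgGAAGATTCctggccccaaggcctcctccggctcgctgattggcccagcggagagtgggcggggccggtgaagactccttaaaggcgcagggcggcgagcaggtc
Hspa1b: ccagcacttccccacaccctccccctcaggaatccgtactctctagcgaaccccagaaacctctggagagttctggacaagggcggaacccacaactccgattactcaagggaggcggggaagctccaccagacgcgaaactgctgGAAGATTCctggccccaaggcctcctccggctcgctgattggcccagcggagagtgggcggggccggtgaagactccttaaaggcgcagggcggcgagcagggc
The windows were 98.8% identical. Their 3 differences, with positions counted from 1 at the 5′ end, the Hspa1a base first and the Hspa1b base last, were C44T, T47C and T249G. The element pair was in 12.8% of the 32851 RefSeq promoter windows of the mouse, so a match of this kind is common and describes letters, not a bound site. The GENCODE transcripts share long stretches: 58.8% of the 50-base windows of Hspa1a and 62.3% of those of Hspa1b had an exact copy in the other. None of the 451 windows in the last 500 bases did, which is where reads of a 3′ library mostly fall. How the authors' counting treated reads that match both genes is not given in the sources used here, so the split between them is uncertain.

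Every one of the 263 heat shock cells held both RNAs. The pair summed to 38 UMIs in the lowest, 145 in the median and 508 in the highest of them, or 0.969%, 1.17% and 2.86% of non-insulin UMIs. In the low-share cells the sum ran from 0 over a median of 10 to 70 UMIs, or from 0% over 0.0954% to 0.322%. The threshold was set by rank, and the share had no gap there. The last cell inside had 125 of 12901 non-insulin UMIs (0.968917%) and the first outside 83 of 8567 (0.968834%). A cut by rank can fall between near-equal cells with or without a discrete group, and whether there is one was not tested. Within 10% of the threshold value lay 178 cells, 75 of them heat shock cells, while 11 heat shock cells had 2% or more.

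**Figure D1:**
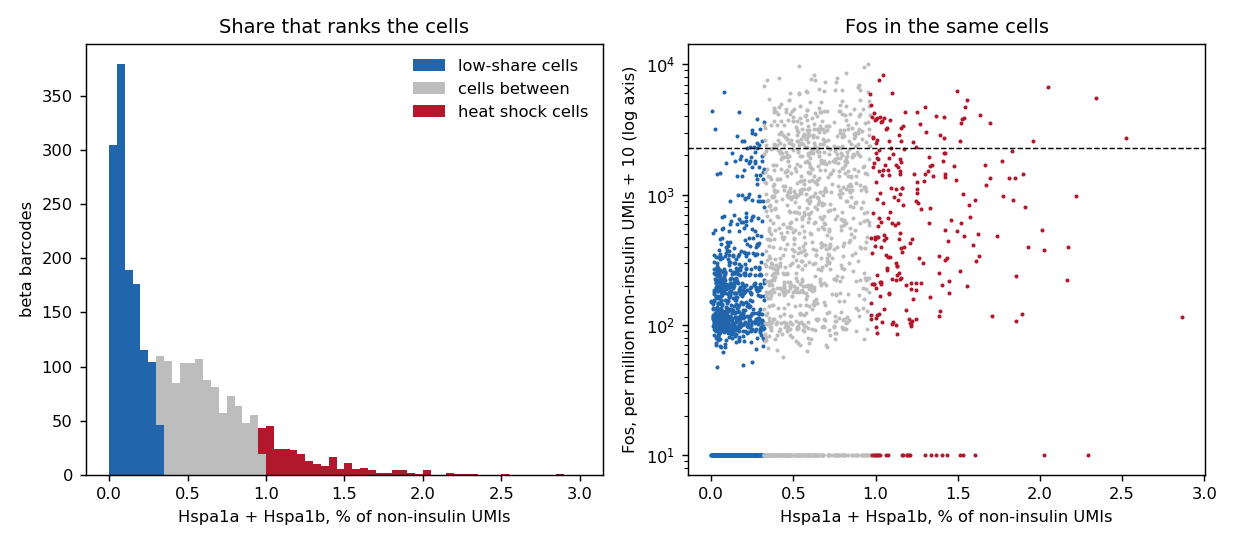
Left, number of beta barcodes by the summed share of Hspa1a and Hspa1b among non-insulin UMIs, in blue for the 1314 low-share cells, grey for the cells between and red for the 263 heat shock cells. Right, Fos in the same cells, as UMIs per 1000000 non-insulin UMIs with 10 added, on a log axis; the dashed line is the lower limit of the 263 cells highest for Fos, and 51 red points lie on or above it while 25 have no Fos UMI.

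Of 16 measured beta cell identity genes, 1 (Isl1) differed by over 1.5-fold between the sets, as given below. Over all 6023 genes compared, 3.35% stood higher and 1.88% lower, so 1 of 16 is near that share. Iapp, the amylin peptide co-secreted with insulin, stood at 91026 CPM in the heat shock cells and 105890 CPM in the low-share cells, where CPM means UMIs per 1000000 non-insulin UMIs, summed over the cells of a set unless single cells are named. The level of Nkx6-1, a transcription factor of mature beta cells, was 264 against 248, that of the glucose transporter gene Slc2a2 159 against 157, and that of Ucn3, a maturity marker, 430 against 461. Pdx1 was at 100.2 against 86.3. Mafa, another maturity factor, had 1 UMI in the heat shock cells and 2 in the low-share cells and could not be judged. Median insulin was 50.8% of UMIs in the heat shock cells and 50.3% in the low-share cells, a range the rule itself had bounded.

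Depth and the summed markers of other cells were compared between the sets. The heat shock cells had a median of 23882 UMIs, 11825 non-insulin UMIs and 3407 genes, against 21115.5, 10506.5 and 3269 in the low-share cells, and mitochondrial RNA was 6.11% against 6.95% of their non-insulin UMIs. Summed marker levels were 6335 against 6606 for 8 alpha cell genes, 448 against 432 for 6 delta cell genes and 4591 against 4924 for 4 PP cell genes. They were 205 against 245 for 10 macrophage genes, 175 against 139 for 6 T and B cell genes, 38.0 against 49.2 for 7 endothelial genes and 19.3 against 85.8 for 9 acinar genes. In single cells the macrophage sum reached 7657 in the heat shock cells and 20514 in the low-share cells, and the acinar sum 542 and 38496. The sum of 6 duct genes was 1452 against 1422, and the B cell gene Cd79a held nearly all of the T and B cell sum, at 174 against 137. In the heat shock cells 1 of the 10 macrophage genes (Adgre1), 2 of 6 T and B cell genes (Cd3e and Cd3g), 2 of 7 mesenchymal genes (Col1a2 and Col3a1), 2 of 6 duct genes (Sox9 and Cftr) and 1 of 6 delta cell genes (Ghsr) were at 0. In the low-share cells, with 14316936 non-insulin UMIs against 3313629, only Cftr and Ghsr of these lists were. The part of these RNAs in the results was not tested beyond the alternative that follows. No doublet caller was run; leaving out 79 barcodes with over 0.1% of non-insulin UMIs in markers of acinar, macrophage, endothelial, mesenchymal or lymphoid cells gave 202 genes higher and 110 lower.

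Across 6023 genes of at least 20 CPM over all beta barcodes, 202 (3.35%) stood over 1.5-fold higher in the heat shock cells than in the low-share cells, relative to the median gene, and 113 (1.88%) stood over 1.5-fold lower. The median gene itself differed by -0.04 on the log2 scale before centring. Scaling instead to non-insulin, non-mitochondrial UMIs without centring gave 186 higher and 169 lower. The other genes were read in the same cells and libraries as the ranking RNAs, so these counts describe the cells and are no independent support for a state. All log2 ratios below are relative to the median gene.

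The named chaperone partner among the markers, Dnajb4, a J-domain protein of Hsp70, ran from 0 over a median of 221 to 1304 CPM in single heat shock cells and from 0 over 55.2 to 971 in the low-share cells. The ranges overlapped, and 85.9% of the heat shock cells lay above the median of the low-share cells. The summed levels were 262 and 82.1, a log2 ratio of 1.71 (1.58 to 1.84). Thinned to 3000 non-insulin UMIs per cell, Dnajb4 was detected in 52.1% (45.9% to 58.3%) of the heat shock cells, 19.9% of the low-share cells and 16.7% of 444 alpha barcodes; unthinned, the shares were 87.5% and 50.9% in the 2 beta sets. RefSeq's table has 2 starts for Dnajb4, and 1 of them, inside the gene's span, has the element pair before it; the 30 bases that end there, chr3:152193846-152193875 on the minus strand, are shown with the pair in capitals. Hsph1 also has 2 starts, both with a match, and the stretch before 1 of them is shown, chr5:149636356-149636385, also on the minus strand.
Dnajb4: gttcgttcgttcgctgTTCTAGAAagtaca
Hsph1: ccattgggtagaatctTTCTCGAAggctcg
Both were among the chaperones that stood higher in the heat shock cells.

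Of the 32 cytosolic chaperones and co-chaperones listed beside Hspa1a and Hspa1b, 28 passed the floor on low levels, 17 stood over 1.5-fold higher and none lower, with a median log2 ratio of 0.66 against 0 for all genes. Dnajb1, the main J-domain activator of inducible Hsp70, ran from 592 over 4116 to 11757 CPM in the heat shock cells and from 0 over 1144 to 11756 in the low-share cells. Its summed levels were 4532 and 1440, a log2 ratio of 1.69 (1.66 to 1.72), and 98.1% of the heat shock cells exceeded the median low-share cell. Hsp90aa1, the inducible Hsp90, stood at 2799 against 1292 (1.15, 1.12 to 1.19). Among the exchange factors, Hsph1 (Hsp110) was at 1819 against 983 (0.93, 0.88 to 0.97) and Bag3, which links Hsp70 to selective autophagy, at 359 against 173 (1.10, 1.00 to 1.20). Hspa4l, a relative of Hsph1, had a log2 ratio of 1.21 (1.07 to 1.34). The constitutive Hsp70 gene Hspa8 stood less far apart, at 3165 against 2104 (0.63, 0.59 to 0.66). The remaining called members were Ahsa1, Cacybp, Chordc1, Dnaja1, Dnaja4, Fkbp4, Hsp90ab1, Hspb1, St13 and Stip1, most of them partners of Hsp90 or Hsp70. Hsf1 itself, the factor that drives the class, was at 21.4 against 22.0.

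The pattern did not extend evenly to other protein-folding compartments. Of 7 mitochondrial chaperones, 1 stood higher, Hspd1 (Hsp60), with a log2 ratio of 0.79 (0.70 to 0.88), and the list's median was 0.01. Of 7 subunits of the cytosolic chaperonin TRiC, 1 (Cct3) passed 1.5-fold, and all 7 lay between 0.22 and 0.60. None of 21 chaperones of the endoplasmic reticulum passed in either direction (median 0.19); Hspa5, their Hsp70 (BiP), had a log2 ratio of 0.16. The polyubiquitin gene Ubb stood at 4877 against 3326 (0.59, 0.56 to 0.62), and the proteasome subunits measured were all within 1.5-fold. Serpinh1, the collagen chaperone Hsp47 and a textbook heat shock gene, had one of the larger ratios, 73.3 against 13.8 (2.45, 2.17 to 2.73), but was seen in few cells: 24.7% of the heat shock cells had a UMI, and 1 cell held 12.8% of their UMIs.

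The genes with the largest ratios were immediate early genes. Of 27 AP-1 and immediate early genes listed, 24 passed the floor, 17 stood higher and none lower, with a median of 1.24. Fos, which pairs with Jun in the AP-1 factor, ran from 0 over 596 to 8219 CPM in the heat shock cells and from 0 over 85.9 to 6170 in the low-share cells. Summed, it stood at 1422 against 220 (2.73, 2.66 to 2.79), although 25 of the 263 heat shock cells had no Fos UMI. Egr1, a zinc finger factor, was at 1271 against 222 (2.56, 2.49 to 2.63), and Jun at 2153 against 393 (2.49, 2.44 to 2.54). Fosb, one of the markers, ran from 320 over 2243 to 7727 in single heat shock cells and from 0 over 694 to 7573 in the low-share cells. Its summed levels of 2483 and 922 gave a log2 ratio of 1.47 (1.43 to 1.51), so it was abundant in both sets. Dusp1, a MAP kinase phosphatase (2.00), Btg2, an antiproliferative gene (2.05), Ier2 (2.00), Junb (1.44) and Zfp36, which destabilises AU-rich mRNAs (1.40), were also higher.

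Of 16 measured calcium and cAMP responsive genes, 8 stood higher (Arc, Dusp5, Gem, Irs2, Nfil3, Npas4, Nr4a1 and Per1) and 1 lower (Ppargc1a), with a median of 0.48. Arc, an activity-dependent gene best known from neurons, had a cell median of 103 with a highest value of 1728 in the heat shock cells and a cell median of 0 with a highest value of 1813 in the low-share cells. It was at 199 against 40.9 in sum (2.32, 2.16 to 2.48). Nr4a1, an orphan nuclear receptor, had cell medians of 162 and 0 and summed levels of 241 and 81.5 (1.60, 1.47 to 1.74). Irs2, the insulin receptor substrate that beta cells raise with glucose and cAMP, had cell medians of 161 and 0 and summed levels of 214 and 62.9 (1.81, 1.66 to 1.95). In cells thinned to equal depth, Arc was detected in 36.5% of the heat shock cells and 9.2% of the low-share cells, Nr4a1 in 44.9% and 17.8%, and Irs2 in 38.4% and 13.7%. The shares in alpha barcodes were 4.1%, 8.3% and 10.1%. Npas4, a calcium-induced factor with a role in beta cells, stood at 308 against 89.8 (1.82, 1.70 to 1.94).

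Other stress lists had fewer members past 1.5-fold. In the integrated stress response, Ddit3 (CHOP; 1415 against 831, 0.81), Ddit4 (0.73) and Chac1 (0.61) stood higher of 17 and Vldlr lower (-0.77). Of 14 antioxidant genes, Txnip, which binds thioredoxin and responds to glucose, was higher (415 against 109, 1.97, 1.86 to 2.07), Hmox1 was at 35.6 against 23.7 (0.62, 0.31 to 0.93) and Srxn1 was lower (-0.73). Among 7 measured NF-kB genes the inhibitors Tnfaip3 (2.10) and Nfkbia (0.94) stood higher, as did Nfkbiz (0.77). Of 10 p53 and growth arrest genes Bbc3 (PUMA, 1.64) and Gadd45g (0.85) did.

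**Figure D2:**
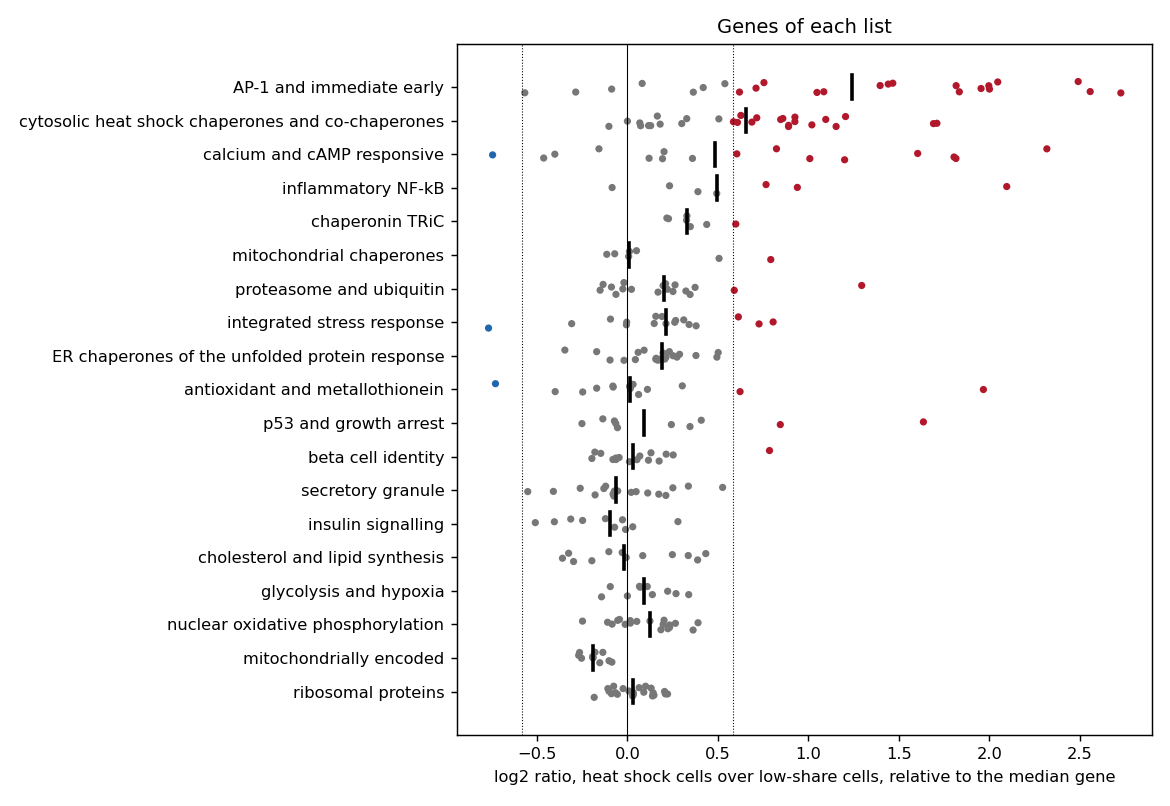
Each point is 1 gene of a list, placed by its log2 ratio of the heat shock cells over the low-share cells relative to the median gene; black bars are list medians, dotted lines mark 1.5-fold, and red and blue points are past it. The AP-1 list (median 1.24) and the cytosolic chaperone list (0.66) lie to the right, while ribosomal (0.03) and beta cell identity genes (0.03) centre near 0.

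Beta cell function genes lay close to the median gene. Of 16 identity genes only Isl1, an islet transcription factor, passed 1.5-fold (0.79, 0.61 to 0.96), and none of 18 granule genes, 10 insulin signalling genes, 12 cholesterol and lipid genes, 10 glycolysis genes, 19 nuclear oxidative phosphorylation genes, 11 mitochondrially encoded genes or 22 ribosomal protein genes did. Over all 6023 genes 3.35% stood higher and 1.88% lower, so few or no calls in lists this short are near that share. The mitochondrially encoded genes all lay between -0.27 and -0.09. Snap25, part of the exocytosis machinery, was lowest of the granule genes (-0.55), and Igf1r of the signalling genes (-0.51). The genes furthest below the median gene were mostly at low levels: Sgk2, a kinase (12.7 against 33.9, -1.38), Dot1l, the H3K79 methyltransferase (18.7 against 49.2, -1.36), Foxn3, a forkhead factor (-1.32), Dock10 (-1.26), Hpgds (-1.23), Sgms2, a sphingomyelin synthase (73.0 against 173, -1.20), Fem1b (-1.17) and Mical2 (-1.15). Cck had the lowest ratio (-1.42), but 1 barcode held 59.4% of its UMIs in the low-share cells. The nuclear long noncoding RNA Neat1 stood at 359 against 596 (-0.69).

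The order of all beta barcodes showed whether these genes kept pace with the ranking RNAs. In 10 equal bins from the lowest to the highest share, Dnajb1 stepped up in every bin from 781 to 4532, as did Hspa1a, which helped to set the order, from 189 to 7160. Hsp90aa1 was at 1118 in the first bin, 2227 in the ninth and 2799 in the last, and Hsph1 at 857, 1478 and 1819. Hspa8 was nearly level over the first 7 bins, at 2022 to 2260, and reached 3165 in the last. Bag3 was at 124 in the first bin, 198 in the eighth, 286 in the ninth and 359 in the last. Each of these chaperone RNAs was highest in the heat shock cells themselves.

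The immediate early genes had a different profile along the same order. Fos stood at 111 in the first bin, 950 in the sixth, 1707 in the ninth and 1422 in the last, and Junb at 227, 816, 1025 and 799. The ninth bin was also above the last for Egr1 (1368 and 1271), Arc (242 and 199), Nr4a1 (275 and 241) and Irs2 (222 and 214), whereas Npas4 (279 and 308), Fosb (2460 and 2483) and Dnajb4 (242 and 262) were highest in the last. The summed AP-1 list went from 5758 in the first bin to 15237 in the ninth and 14454 in the last, and the chaperone list from 10157 to 18396 and 21572. Median depth was not even along the order: it was 10189 non-insulin UMIs in the first bin, 13817 in the eighth and 11825 in the last, and its part in these profiles was not tested.

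**Figure D3:**
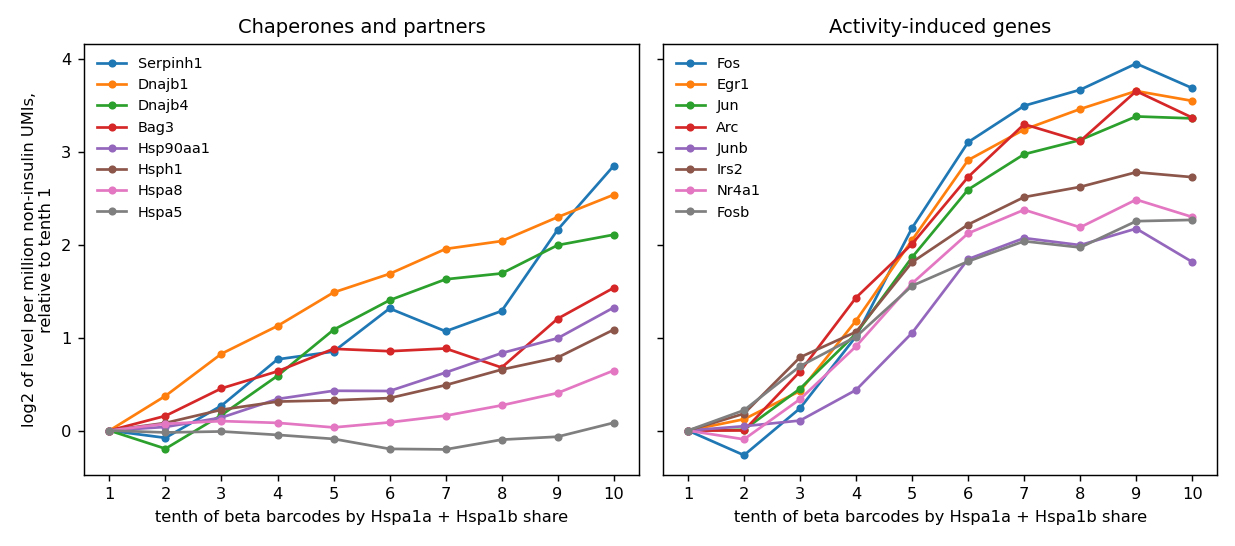
Summed level of each gene in 10 bins of 262 or 263 beta barcodes ordered by Hspa1a and Hspa1b share, as the log2 of its ratio to the first bin; the last bin holds the heat shock cells. The chaperone genes are highest in bin 10, Hspa5 by little, while Fos, Egr1, Arc, Junb, Irs2 and Nr4a1 are highest in bin 9.

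To set the state beside Fos activation, the 263 beta barcodes of highest Fos share were taken in the same way. The sets shared 51 cells, 19.4% of each (14.8% to 24.7%). Another 52 heat shock cells (19.8%) were below the median of all beta barcodes for Fos, and 160 (60.8%) lay between. Of the Fos cells, 18 (6.84%) were low-share cells and 194 (73.8%) lay between. This left 212 heat-shock-only cells, 212 Fos-only cells, 51 in both and 958 low in both measures, which served as the common reference. The Fos-only cells were deeper, with a median of 15326.5 non-insulin UMIs against 10898 in the heat-shock-only cells, and the part of depth was not tested at the level of single cells. With both sets taken within 5 strata of depth, the medians were 11828.5 and 11673, and the counts below of 185 and 224 became 184 and 214.

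Over that reference, 3.89% of 6022 genes stood higher and 2.36% lower in the heat-shock-only cells, and 8.75% and 7.07% in the Fos-only cells. Between the heat-shock-only and the Fos-only cells directly, 185 of those genes (3.07%) stood over 1.5-fold higher in the heat-shock-only cells and 224 (3.72%) over 1.5-fold lower. Hspa1a and Hspa1b chose 1 of these sets and Fos the other, and cells in both were left out. RNAs that vary with the ranking RNAs are thereby set apart by the choice of cells. The counts and ratios between these sets describe the cells and are no independent support for separate states. The clearest chaperone difference was Bag3, at 376 CPM in the heat-shock-only cells, 152 in the Fos-only cells, 303 in the cells with both and 171 in the cells low in both. Its log2 ratio between the first 2 sets was 1.26 (1.10 to 1.41), and the ratio of the Fos-only cells to the cells low in both was -0.09 (-0.24 to 0.05). Serpinh1 stood at 72.2 against 32.8 (1.09, 0.74 to 1.44) and Hsph1 at 1872 against 1241 (0.54, 0.48 to 0.60). Hspa4l was the other of 2 chaperones, of 28, that passed 1.5-fold, and none passed in the Fos direction.

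Most chaperones lay within 1.5-fold of each other in the 2 kinds of cell. Dnajb1 stood at 4222 in the heat-shock-only cells, 3697 in the Fos-only cells and 1308 in the cells low in both, so that it differed by 0.14 (0.10 to 0.18) between the first 2. Hsp90aa1 stood at 2571, 2458 and 1225, a difference of 0.01 (-0.03 to 0.06). The marker Dnajb4 was at 262, 215 and 72.1 (0.23, 0.08 to 0.39), and Fosb at 2470, 2253 and 793 (0.08, 0.03 to 0.13). Hspa8 was slightly lower in the heat-shock-only cells (-0.12, -0.16 to -0.08). Hspa1a itself was at 3748 in the Fos-only cells, well above the 588 of the cells low in both, and the rule kept it below the threshold there.

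Immediate early genes separated them in the other direction, unevenly. Of 23 measured without Fos, 10 stood over 1.5-fold lower in the heat-shock-only than in the Fos-only cells (Atf3, Btg2, Dusp1, Egr1, Ier2, Ier3, Jun, Junb, Klf2 and Zfp36) and none higher, with a median of -0.50. Zfp36 was at 58.5 against 238 (-2.08, -2.34 to -1.82), Dusp1 at 205 against 759 (-1.94), Ier2 at 231 against 822 (-1.88) and Junb at 592 against 1896 (-1.73). Jun (1763 against 3293, -0.95) and Egr1 (1019 against 2080, -1.08) were nearer to each other. Outside that list, C2cd4b, an inflammation-responsive islet gene, stood at 657 against 2393 (-1.92), Socs3, a feedback inhibitor of cytokine signalling, at 16.5 against 52.4 (-1.72) and Rasd1, a Ras-related GTPase, at 70.7 against 219 (-1.68). The markers Arc (185 against 269, -0.59), Irs2 (186 against 278, -0.63) and Nr4a1 (225 against 319, -0.55) were lower by smaller amounts. Rhou (1.30), Ccng2 (1.10), Hnf4a (1.10), Osbpl3 (1.05), Crebl2 (1.04) and Fam178a (1.01) led the other genes higher in the heat-shock-only cells. Of these, Hnf4a, Osbpl3, Rhou, Ccng2 and Crebl2 stood lower in the Fos-only cells than in the cells low in both, by log2 ratios of -1.68, -1.55, -0.91, -0.79 and -0.95.

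**Figure D4:**
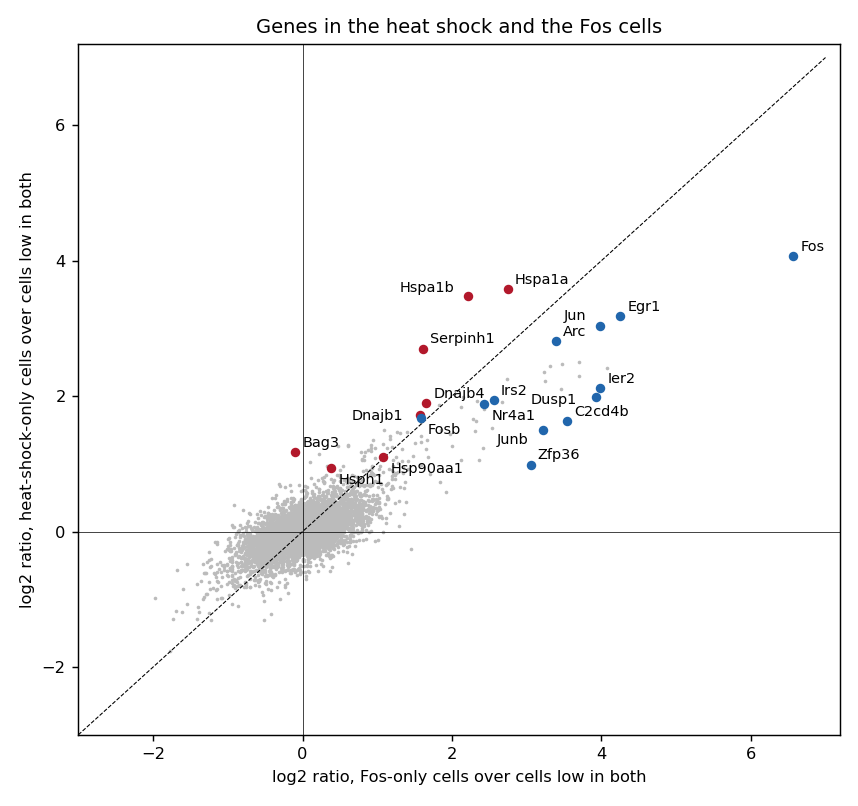
Each grey point is 1 gene, placed by its log2 ratio in the 212 Fos-only cells (x axis) and in the 212 heat-shock-only cells (y axis), both over the same 958 cells low in both measures and relative to the median gene; red marks chaperones, blue marks activity-induced genes, and the dashed line is equality. The shared reference ties the axes together; Bag3 lies at -0.09 and 1.17, Dnajb1 at 1.57 and 1.72, and Zfp36 at 3.05 and 0.99.

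The 52 heat shock cells below the median for Fos held at most 138 Fos CPM each. Over the 958 cells low in both, they had 14 of 28 chaperones and 11 of 23 immediate early genes over 1.5-fold higher, and none lower in either list, where 5.41% of 6022 genes stood higher and 6.97% lower. Bag3 (1.38, 1.18 to 1.58), Hsph1 (1.09, 1.00 to 1.18), Dnajb1 (1.60) and Dnajb4 (1.58) were well above the reference. Jun (1.60, 1.44 to 1.77), Egr1 (1.61, 1.38 to 1.84), Arc (1.93, 1.48 to 2.36), Nr4a1 (1.60) and Fosb (1.36) were also higher, while Junb (0.47), Dusp1 (0.50), C2cd4b (0.47) and Zfp36 (-0.17, -1.06 to 0.59) were within 1.5-fold of it. Fos was held low by the choice of cells. These 52 cells had a median of 9570 non-insulin UMIs.

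The 2 Hsp70 genes did not share the immediate early genes equally. When all beta barcodes were ranked by Hspa1a alone or by Hspa1b alone, the top 263 cells had 124 in common, 47.1% of each. Between the 139 cells high for Hspa1a only and the 139 high for Hspa1b only, Fos stood at 2534 against 759 CPM (1.81, 1.73 to 1.91), Dusp1 at 645 against 189 (1.85, 1.67 to 2.03) and Junb at 1354 against 543 (1.39). Bag3 was the reverse, at 267 against 371 (-0.40, -0.57 to -0.23), as was Hsph1 at 1437 against 1786 (-0.24, -0.31 to -0.16), both within 1.5-fold. Of the markers, Arc was at 242 against 155 (0.72, 0.49 to 0.94) and Irs2 at 243 against 172 (0.58, 0.37 to 0.80), while Fosb (0.10, 0.04 to 0.16), Nr4a1 (0.11, -0.09 to 0.31) and Dnajb4 (0.26, 0.07 to 0.46) lay nearer to 0. Of the Hspa1a-only cells 58 (41.7%) were among the 263 Fos cells, and of the Hspa1b-only cells 10 (7.19%). The former were also deeper, with a median of 13099 against 10873 non-insulin UMIs, and the part of depth was not tested. From the lowest to the highest set, Hspa1a made up 50.2% (49.0% to 51.4%) of the pair's UMIs in the heat shock cells below the Fos median, 52.2% in the cells low in both, 53.9% in the heat-shock-only cells, 61.3% in the Fos-only cells and 63.9% (63.0% to 64.9%) in the cells with both. In droplets of at most 200 UMIs, Hspa1a had 14245 UMIs and Hspa1b 8093. The 44 alpha barcodes highest for the pair had 3518 and 2140, and the 222 lowest had 576 and 348. Fos was at 221 and 103 in these alpha sets, on the non-hormone scale given below. Whether the share of Hspa1a follows Fos was not tested.

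**Figure D5:**
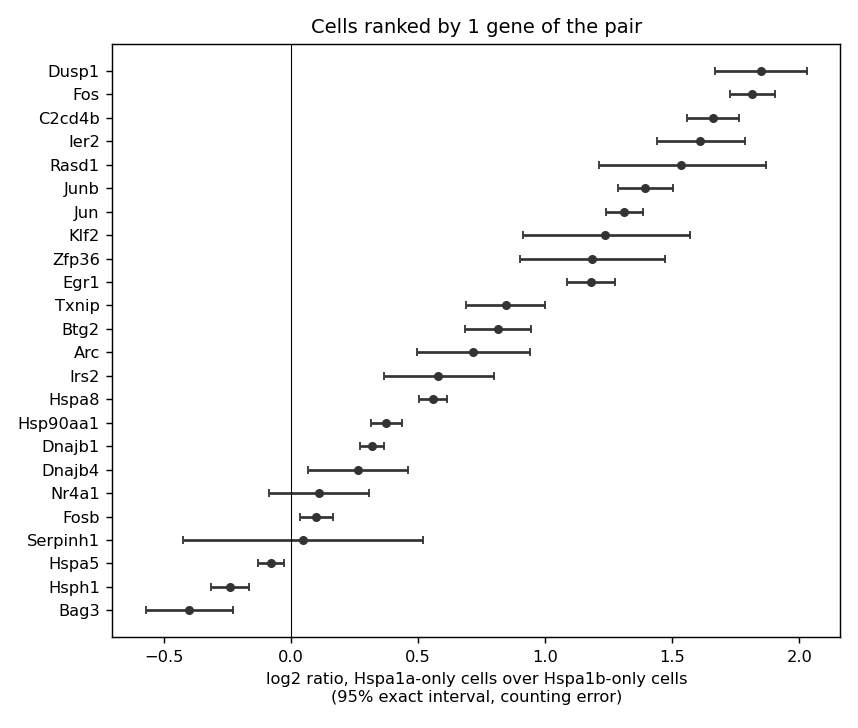
Log2 ratio of each gene between the 139 cells high for Hspa1a only and the 139 high for Hspa1b only, relative to the median gene, with 95% exact intervals for counting error. Dusp1 (1.85) and Fos (1.81) lie furthest to the right and Bag3 (-0.40) furthest to the left.

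Letters of the upstream windows were read for the called genes that RefSeq's table holds. The element pair was in 6 of 13 matched chaperones that stood higher (46.2%; Hsph1, Dnaja1, Dnaja4, Dnajb4, Hspb1 and Fkbp4), in 1 of 14 matched AP-1 genes that did (7.14%; Jun) and in 570 of 4732 matched genes of all those measured (12.0%). The cAMP response element TGACGTCA, searched the same way, was in none of the 13 and in 2 of the 14 (Btg2 and Dusp1), against 4.06% of the 4732 genes and 1.55% of all promoter windows. A longer form of the heat shock element, the pair with a further repeat, was in none of the 13 chaperones or 14 AP-1 genes. The core of the serum response element was also in none of either. Among the 4732 genes these motifs were in 0.549% and 0.0423%, so no match in lists this short decides nothing. Bag3, Serpinh1, Hspa4l and Dnajb1 had entries but no match to the pair. Arc, Egr1, Hsp90aa1 and Hspa8 had no entry.

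Inducible Hsp70 RNA was also read outside these cells. Among 589592 droplets of at most 200 UMIs, taken as free RNA, Hspa1a and Hspa1b made up 0.407% of non-hormone UMIs, between the 0.143% of the low-share cells and the 1.41% of the heat shock cells. The droplet level of Dnajb4 (131), Fos (621), Arc (75.9) and Nr4a1 (122) likewise lay between the summed levels of the 2 beta sets. The 444 alpha barcodes, defined by glucagon of at least 10% of UMIs and insulin under 10%, had a median of 0.0723% and a highest value of 3.39%, and 15 of them (3.38%, 1.90% to 5.51%) reached the lowest share among the 263 highest beta barcodes on the same non-hormone scale (1.07%). The 44 alpha cells highest by the same measure were set beside the 222 lowest. Dnajb1 (2.92, 2.77 to 3.06), Bag3 (2.58, 2.27 to 2.89), Hsph1 (1.74) and Serpinh1 (3.86) stood higher in them. Of the activity-induced genes, Fosb (1.51, 1.27 to 1.75), Irs2 (1.56, 1.00 to 2.11) and Jun (0.94, 0.76 to 1.11) also stood higher, Egr1 had a ratio of 0.70 (0.31 to 1.08), Arc was at 22.3 against 16.6 (0.47, -0.64 to 1.47) and Nr4a1 at 40.5 against 35.7 (0.23, -0.55 to 0.95). Fos was at 221 against 103 (1.15, 0.81 to 1.48). Alpha levels are per 1000000 non-hormone UMIs and the ratios are relative to the median gene of that comparison. Whether they differ from the ratios in beta cells was not tested.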

How the data were processed

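UMI counts per gene and barcode of 1 wild type islet library were analysed as deposited by the authors (27998 genes, 118523180 UMIs). Per the submitters' processing notes, FastQC and Trimmomatic were used and the build was mm10; no source used here names an aligner or counter. The matrix of the transgenic library was not used here. The cells, marker genes and 32 gene lists were chosen with earlier results of these data known.

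UMIs were summed over the cells of each set and divided by their non-insulin UMIs. Genes of at least 20 UMIs per 1000000 non-insulin UMIs (CPM) over all beta barcodes were compared, and a gene was called when past 1.5-fold relative to the median gene. Intervals are exact (Poisson for levels, conditional binomial for ratios, Clopper-Pearson for shares) and cover counting error only; with 1 library, no p-value was computed. Cells were thinned once to 3000 non-insulin UMIs for detection. Simulated data were drawn as 1 Poisson count per gene for each set. They hold no spread between cells, so their error counts leave that spread out. In them, 100% of the 2-fold higher and 2-fold lower genes of the main comparison were recovered. Of 6023 genes, 1 unchanged gene was called higher and 4 lower. For the heat-shock-only against the Fos-only cells, 100% and 97% were recovered, and 12 unchanged genes were called higher and 22 lower. Named genes were the 7 markers, a fixed set of hormone, beta cell, chaperone and immediate early genes, the 4 highest and 2 lowest of each list, the 15 highest and 10 lowest of all, and the 8 most different each way between the heat-shock-only and Fos-only cells. Genes named within a list's called members, the paralog ranking and the sequence comparison were chosen after values were seen. Of 431 list genes, 428 were in the gene list. Python 3.11.15, numpy 2.4.6, scipy 1.17.1 and pandas 2.3.3 were used. Upstream sequences and coordinates are RefSeq's on GRCm38.p6, and the Hspa1a and Hspa1b transcripts compared are GENCODE's.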

Additional observations from a re-analysis of the deposited data

How the results depend on the processing

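No paired analysis was possible because each group is 1 library. Against 202 genes higher and 113 lower in the heat shock cells, a floor of 50 CPM gave 96 and 27, a floor of 5 gave 472 and 416, all other beta barcodes as the reference gave 80 and 35, cells thinned to 3000 UMIs gave 326 and 362, and leaving out cells above the median for Fos (chosen after seeing the data) gave 326 and 420. The lower count became 217 for the 131 highest cells, 223 and 66 when ranked by Hspa1a or Hspa1b alone, and 74 when ranked by the share of all UMIs. Trimmed-mean scaling gave 188 and 130, and sets taken within 5 strata of depth 156 and 79. The cells shared with the Fos set became 225 with the 526 highest by each measure (42.8% of each) and 82 within 5 strata of depth (31.1%). Sign changes were looked for only among named genes past 1.5-fold in the main setting. Those found were Hmox1 when thinned (-0.017), and Zfp36 (-0.17), Atf3 (-0.28) and Ppargc1a (0.077) without cells above the Fos median. Between heat-shock-only and Fos-only cells, Cd74 changed sign. It was 0.32 with Fos cells ranked by summed Fos, Egr1, Junb and Ier2 and 0.23 within 5 strata of depth. Smaller ratios changed sign too: without cells above the Fos median, 5 of 11 mitochondrially encoded genes lay above the median gene. Many named ratios kept their sign but moved outside their stated intervals. Without cells above the Fos median 110 moved and 68 stayed inside. With all other beta barcodes as the reference 93 moved and 88 stayed. Ranked by Hspa1a or Hspa1b alone, 73 and 82 moved and 108 and 99 stayed. Under trimmed-mean scaling 7 moved and 174 stayed. The cause of these changes was not tested, beyond the number of genes or cells each alternative leaves. With 1 library, the spread between animals is unknown.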

Other observations

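Parp14 and Ifit1, interferon-responsive genes outside the naming rule, picked after their values were seen, stood lower in the heat shock cells than in the low-share cells. The first was at 20.8 against 39.7 CPM (log2 ratio -0.89, -1.27 to -0.53) and the second at 57.3 against 107 (-0.86, -1.09 to -0.64). Barcodes outside the insulin range of the rule also reached the heat shock threshold: 17 of 331 (5.14%, 3.02% to 8.10%) with insulin from 10% to under 35% of UMIs, and 29 of 389 (7.46%, 5.05% to 10.5%) with 60% or more, against the 10% that the rule fixed between.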
